A study of Mus musculus with 24 samples.

Results

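The net state of macrophages that received Sal003 together with IL-4 and IL-13 was described against naive macrophages, using 8 of the 24 RNA-seq libraries in the series. The members were 4 libraries with Sal003 and the 4 naive libraries of the same mice, numbered 1, 2, 4 and 5, and each mouse gave 1 library to each group. All groups were wild-type bone marrow–derived macrophages (BMDM) from 9-week-old female C57BL/6J mice, grown in macrophage colony-stimulating factor (M-CSF) before treatment. Naive cells stayed unstimulated for 24 h, whereas the Sal003 group had 10 µM Sal003 for 1 h and then 20 ng/ml IL-4 and 20 ng/ml IL-13 with Sal003 for 24 h. The 4 libraries of the same mice that had IL-4/IL-13 without inhibitor served to define which genes the cytokines moved and as a second reference level. No group had Sal003 without cytokines, so against naive the drug's own effect and that of the cytokines cannot be told apart. Whether naive cells received the solvent of Sal003 is not given in the sources used here. Each mouse gave separate libraries, so the spread between libraries of 1 group includes that between animals.

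IL-4 and IL-13 act through receptors that share the IL-4Rα chain and activate STAT6, which turns on the genes of alternative activation in macrophages, such as *Arg1*, *Retnla* and *Chil3*. Sal003 is a salubrinal derivative that blocks dephosphorylation of the translation factor eIF2α, and phosphorylated eIF2α lowers general translation while ATF4, the main transcription factor of the integrated stress response (ISR), is translated more. Macrophages at rest also transcribe interferon-stimulated genes at a tonic level in response to the interferon that they release.

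Reads counted on genes ranged from 17768551 to 19883716 per naive library, from 16238727 to 19592076 with IL-4/IL-13 and from 18674060 to 20547790 with Sal003. Levels below are counts scaled by the reads on genes in each library with TMM factors (CPM), given for mice 1, 2, 4 and 5 in that order. The 8 defining macrophage markers were present in all groups, and their summed level was 31200 to 36900 CPM in naive, 11800 to 14300 CPM with IL-4/IL-13 and 14200 to 16000 CPM with Sal003. Most of the naive sum was *Lyz2*, whose own fall is given below, so this sum does not stand for the other markers. Of the 10 neutrophil markers *Ly6g* was at or under 3 counts in every library of the 3 groups, and the sum was 41.7 to 79.0 CPM in naive, 29.1 to 51.3 CPM with IL-4/IL-13 and 5.45 to 8.95 CPM with Sal003. Summed megakaryocyte markers were at 21.9 to 39.1, 12.6 to 14.4 and 8.44 to 9.7 CPM in these groups, dendritic cell markers at 7.13 to 11.4, 9.21 to 9.95 and 2.75 to 3.96 CPM, and fibroblast markers at 19.7 to 141, 16.9 to 88.6 and 8.24 to 49.3 CPM. Markers of T cells, B cells, mast cells and erythroid cells summed to at most 2.90 CPM. In such bulk samples fewer cells of a type and less RNA per cell cannot be told apart. On interferon-stimulated genes the Sal003 libraries of mice 4 and 5 stood apart, at the lowest and the highest level of that group for 34 of 34 genes, so results on those genes are also given without each.

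Against naive, 440 of 13679 tested genes (3.22%) were called up and 1041 (7.61%) down with Sal003 and IL-4/IL-13, at a Benjamini-Hochberg adjusted p under 0.05 in the quasi-likelihood test of edgeR and at least a 2.5-fold change. At the adjusted p alone 4500 genes (32.9%) were above naive and 4459 (32.6%) below it. IL-4/IL-13 without inhibitor called 740 genes up (5.41%) and 833 down (6.09%) against the same naive libraries, and these genes are called induced and repressed here. Because both comparisons share the naive libraries, their values are set side by side only. A gene was placed at naive level where the 95% interval of its fold change lay within 1.5-fold of naive, which held for 6858 of all tested genes (50.1%). In the classes below this rule came first, so such a gene counts as at naive level even where it passed the adjusted p.

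Of the 740 induced genes, 260 (35.1%) were still called above naive with Sal003. Another 170 (23%) were above naive at the adjusted p but under 2.5-fold, 60 (8.11%) were at naive level, 151 (20.4%) were below naive, and 99 (13.4%) fell in none of these classes, a count that rose to between 141 and 161 when 1 mouse was left out. The median induced gene was at a log2 fold change of 1.96 with the cytokines and at 0.86 with Sal003 added, and with genes near 0 counts in naive set to their lower bound at 1.93 and 0.82. Repressed genes moved less. Of 833, 486 (58.3%) were still called below naive, 194 (23.3%) were below at the adjusted p and under 2.5-fold, 64 (7.68%) were at naive level, 37 (4.44%) were above naive and 52 (6.24%) were undetermined, or 65 to 98 with 1 mouse left out. Their median went from -1.92 to -1.57, beside -0.02 and 0 over all tested genes. In single mice the median log2 ratio of Sal003 to naive ran from 0.63 to 0.93 for induced genes and from -1.52 to -1.29 for repressed genes, above 0 and below 0 in every mouse.

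**Figure D1:**
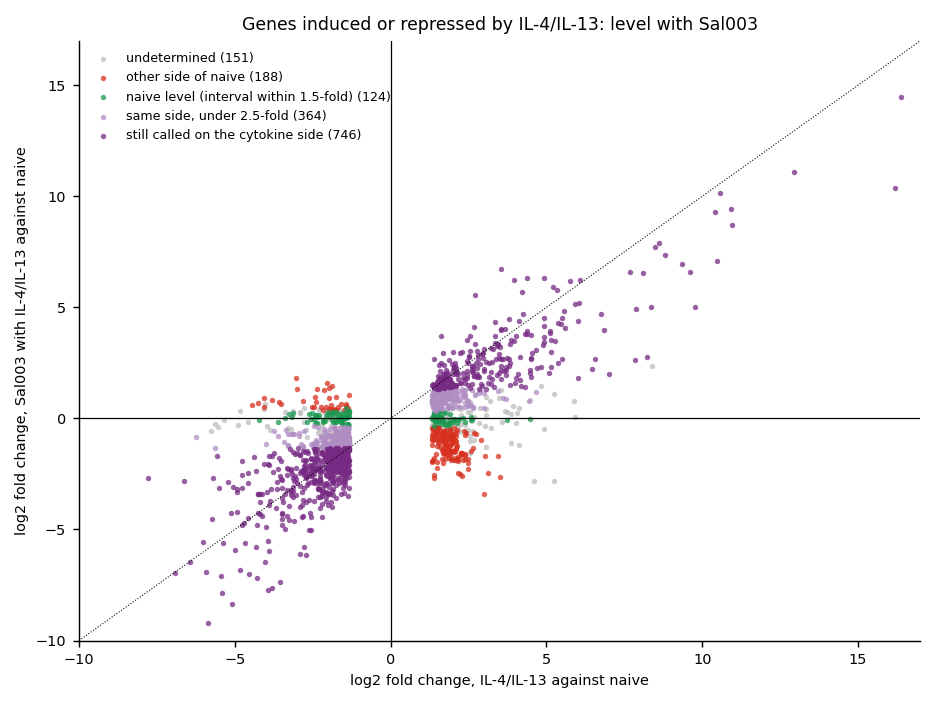
Each point is 1 of the genes called induced or repressed by IL-4/IL-13, with the log2 fold change of IL-4/IL-13 against naive on the horizontal axis and that of Sal003 with IL-4/IL-13 against naive on the vertical axis; colour gives the class and the dotted line marks equal change. Induced genes spread from the dotted line to well below 0. Most repressed genes are in the class still called below naive, and the other repressed genes range from there up to 0 and above it.

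The genes that stayed induced included most of the alternative activation markers, at lower levels. Of 29 type 2 markers tested, 22 were above naive and 4 below at the adjusted p, 18 were called up and 2 down, and their median log2 fold change was 2.31, beside 4.48 with cytokines alone and 0 over all tested genes. With the 3 members at or under 3 counts in naive set to their bound, these medians were 2.10 and 3.73. Compared with IL-4/IL-13, 19 of the 29 were lower and 8 higher with Sal003, where 26.4% and 27% of all tested genes were. *Retnla*, which encodes the secreted protein RELMα, read at 0, 0.398, 0.0536 and 0 CPM in naive, 7963, 8060, 7832 and 7161 CPM with IL-4/IL-13 and 150, 141, 259 and 67.95 CPM with Sal003. Every Sal003 library lay above every naive one, and every one lay far below the IL-4/IL-13 libraries. The *Retnla* log2 fold change against naive was 10.38 (n = 4, adjusted p = 1.07e-16), and against IL-4/IL-13 it fell by 5.79. So few naive reads leave the size of the rise uncertain, and log2 ratios to naive in single mice ran from 8.13 to 10.69. *Arg1*, the enzyme that splits arginine to ornithine and urea (chr10:24791118-24803817), was at or under 3 counts in each naive library and read at 465, 473, 476 and 405 CPM with IL-4/IL-13 and 154, 133, 132 and 94.9 CPM with Sal003. It was thus at least 820-fold above naive with Sal003 and at least 2900-fold with cytokines alone, against a floor of 3 counts per library, and 13.8% of its windows of sequence are overlapped on the opposite strand. Mouse 5 was the lowest of the Sal003 libraries for both genes.

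A group of lectins, ribonucleases and transcription factors stayed in the same range, well above naive and below the cytokine level. *Chil3*, a chitinase-like protein, rose from 9.61, 13.1, 9.76 and 8.1 CPM in naive to 2547, 2181, 2615 and 1403 CPM with Sal003, against 3503, 3646, 3997 and 3092 CPM with IL-4/IL-13. All 4 Sal003 libraries lay between the naive and the cytokine libraries, with mouse 5 lowest (213-fold above naive, adjusted p = 3.04e-22). *Rnase2a*, an eosinophil-type ribonuclease, had no read in any naive library and 156, 138, 198 and 108 CPM with Sal003, at least 958-fold higher. *Mgl2*, a C-type lectin, kept 55.7, 44.1, 64.7 and 44.1 CPM of the 391, 374, 386 and 380.1 CPM seen with cytokines, 15.6-fold above naive (adjusted p = 2.18e-19), and 5.39% of its sequence windows occur in other genes. The integrin chain *Itgax*, or CD11c, was 26.3-fold above naive with Sal003 and 108-fold with cytokines alone. *Ear2*, another ribonuclease that shares 13.8% of its windows with other genes, was 96.3-fold above naive. The potassium channel *Kcnd3*, the homeobox gene *Msx3* and the chitinase-like *Chil4* had no read in naive and were at least 47.4-fold, 28.3-fold and 25.6-fold higher with Sal003. *Chil4* shares 3.75% of its windows with *Chil3*. *Hr* and *Tuba8* kept little of their cytokine level, at 2.37 to 6.17 CPM of 174 to 185 CPM and 0.507 to 0.963 CPM of 21.1 to 23.6 CPM, but stayed above the 0.447 to 0.781 CPM and 0.146 to 0.199 CPM in naive. Of the *Tuba8* windows, 12.5% are overlapped on the opposite strand.

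Among 29 genes of the IL-4 receptor pathway and its transcription factors, 15 were above and 10 below naive at the adjusted p, with a median of 0.12 beside 0.58 with cytokines alone. *Irf4*, a transcription factor of alternative activation, read at 13.1, 13.1, 13.7 and 14.3 CPM in naive, 303, 314, 297 and 316 CPM with IL-4/IL-13 and 88.5, 85.9, 110.3 and 71.7 CPM with Sal003. No library of the 3 groups overlapped, and the change against naive was 6.54-fold (log2 2.71 ± 0.097, SE, n = 4, adjusted p = 2.79e-17). *Egr2*, a zinc finger factor of the same program, kept more of its level, 249, 245, 263 and 233 CPM against 411, 416, 391 and 422 CPM with the cytokines and 11.8 to 15.7 CPM in naive. *Klf4* was 5.82-fold and *Myc* 2.74-fold above naive, where cytokines alone gave 9.51-fold and 7.62-fold. The feedback inhibitors of cytokine signalling differed among themselves: *Socs1* was 20.7-fold above naive and above IL-4/IL-13 by 0.24 on the log2 scale, whereas *Cish* and *Socs2* fell by 1.52 and 2.91 on the log2 scale against IL-4/IL-13 and stayed 16.8-fold and 2.66-fold above naive. Between 8.51% and 22% of the windows of these 3 genes occur in other genes or on the opposite strand. The receptor chain *Il4ra* was below naive with and without Sal003, at 91.7 to 97.9 CPM with Sal003 against 160.3 to 183 CPM. *Stat6* was 1.09-fold above naive (adjusted p = 0.013), but did not pass the adjusted p with upper-quartile scaling.

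Other induced genes were not lower with Sal003 than with cytokines alone. Of the 260 genes still called above naive, 141 were lower than with IL-4/IL-13, 43 were higher and 76 did not pass the test, and the interval of 72 lay within 1.5-fold of the cytokine level. *Pdcd1lg2*, the checkpoint ligand PD-L2, read at 1.22, 0.739, 0.912 and 0.745 CPM in naive, 60.1, 56.9, 66.8 and 61.4 CPM with IL-4/IL-13 and 70.02, 64.5, 71 and 69.5 CPM with Sal003 (75.1-fold above naive, adjusted p = 1.62e-23). The mannose receptor *Mrc1* and the β-glucan receptor *Clec7a* were 4.03-fold and 4.96-fold above naive and above IL-4/IL-13 by 0.32 and 0.29 on the log2 scale. *Slc7a2*, an arginine transporter, reached 489, 497, 422 and 478 CPM from 5.003 to 7.99 CPM in naive, higher than the 325 to 370.5 CPM with cytokines. *Cd36*, the scavenger and fatty acid receptor, was 4.51-fold above naive, and *Atp6v0d2*, a proton pump subunit, 15.5-fold. The Sal003 libraries of *Slc7a2* all lay above its cytokine libraries, as did those of *Mrc1*, *Clec7a* and *Atp6v0d2*.

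**Figure D2:**
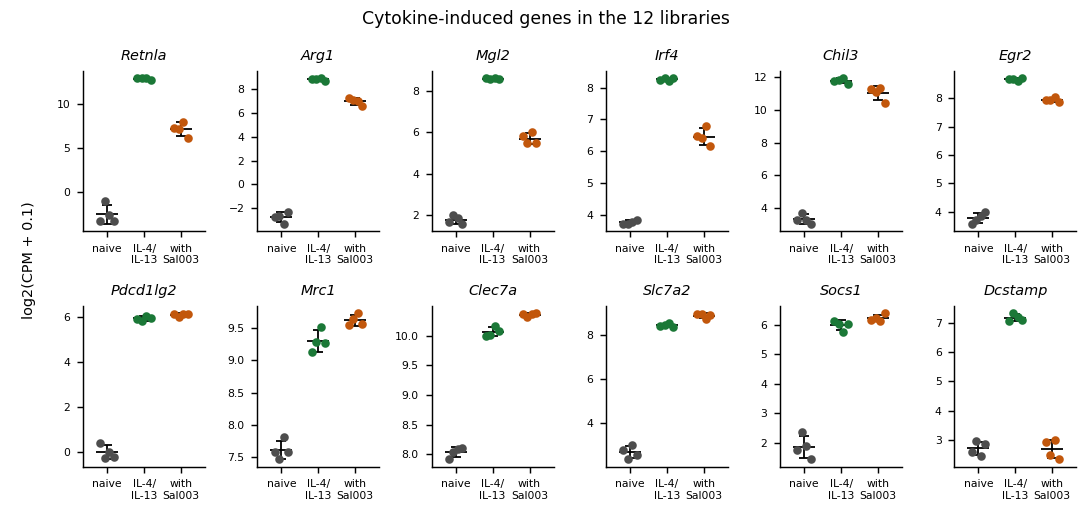
Levels of 12 cytokine-induced genes as log2(CPM + 0.1) in naive, IL-4/IL-13 and Sal003 with IL-4/IL-13 libraries; points are the 4 mice, and the horizontal mark and bar are the mean and SD. *Retnla* and *Dcstamp* drop far from their cytokine level with Sal003, *Chil3* and *Egr2* drop little, and *Pdcd1lg2*, *Mrc1*, *Clec7a*, *Slc7a2* and *Socs1* do not drop.

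Promoter windows of 3 of these genes are shown because they contain TTC and GAA set apart by any 4 bases, a palindrome of the type STAT6 binds, while the genes kept very different shares of their cytokine level. Each window runs from 250 bases before to 50 bases into the gene, on GRCm39 with the GENCODE vM39 transcript start, on the strand of the gene, with matches in capitals. They lie at chr19:29388069-29388368 on the plus strand for *Pdcd1lg2*, at chr16:10603826-10604125 on the minus strand for *Socs1* and at chr16:48662645-48662944 on the plus strand for *Retnla*.
Pdcd1lg2: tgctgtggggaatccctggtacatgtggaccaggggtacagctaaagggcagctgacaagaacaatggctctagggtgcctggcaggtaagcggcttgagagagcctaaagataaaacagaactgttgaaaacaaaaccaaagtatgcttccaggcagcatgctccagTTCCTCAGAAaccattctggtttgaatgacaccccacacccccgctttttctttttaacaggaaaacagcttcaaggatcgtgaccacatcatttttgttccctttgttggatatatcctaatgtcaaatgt
Socs1: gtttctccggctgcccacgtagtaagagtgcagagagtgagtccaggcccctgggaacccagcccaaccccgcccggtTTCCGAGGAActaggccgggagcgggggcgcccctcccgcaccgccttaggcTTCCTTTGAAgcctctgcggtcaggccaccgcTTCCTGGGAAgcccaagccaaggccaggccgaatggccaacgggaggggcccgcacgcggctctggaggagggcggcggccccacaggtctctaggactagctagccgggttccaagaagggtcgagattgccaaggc
Retnla: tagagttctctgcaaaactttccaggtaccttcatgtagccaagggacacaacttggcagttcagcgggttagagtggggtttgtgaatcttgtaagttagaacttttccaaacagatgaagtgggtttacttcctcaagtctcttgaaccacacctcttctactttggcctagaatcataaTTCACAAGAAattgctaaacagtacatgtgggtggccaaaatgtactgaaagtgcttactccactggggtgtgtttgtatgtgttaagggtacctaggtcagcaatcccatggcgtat
*Socs1* held 3 matches, starting 172, 120 and 88 bases before the transcript start, and *Pdcd1lg2* and *Retnla* held 1 each. On either strand, 6.05% of the windows of all 11958 protein-coding genes tested held a match. Among induced genes, 11.9% of the 219 that stayed induced and 4.61% of 152 partly above naive did. So did 8.47% of the 59 back at naive level, 6.71% of 149 below naive and 8.14% of 86 undetermined. Among repressed genes, 3.75% of 400 still below naive, 4.14% of 169 partly below and 5.17% of 58 at naive level held one. The share was 18.8% of 32 above naive and 12.5% of 32 undetermined, so matches were not particular to genes that stayed induced. The letters were present in *Retnla*, which lost most of its cytokine level, as well as in the other 2.

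The 6 induced genes that stood furthest above the cytokine level with Sal003 were a mixed group. *Phgdh*, the first enzyme of serine synthesis from glycolysis, read at 2.15, 1.53, 1.88 and 1.04 CPM in naive, 5.07, 5.25, 5.21 and 4.67 CPM with IL-4/IL-13 and 27.1, 20.6, 18.8 and 21.2 CPM with Sal003. The 3 groups did not overlap, and it stood 13.3-fold above naive (adjusted p = 1.26e-18), although 37.1% of its windows occur in other genes. *Prps1*, which makes the ribose phosphate for nucleotides, rose to 94.1, 97.6, 90.2 and 103 CPM from 6.68 to 7.62 CPM. *Dusp4*, a phosphatase of MAP kinases, was 11.4-fold above naive, the protease inhibitor *Cst7* 17.5-fold, the G protein subunit *Gng11* 6.3-fold and *Tmem151a* 7.84-fold.

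The genes back at naive level after the largest cytokine induction had varied roles. *Dcstamp*, which is needed for fusion into giant cells, read at 5.86, 7.67, 5.36 and 7.06 CPM in naive, 134, 161, 146 and 139 CPM with IL-4/IL-13 and 7.47, 5.53, 7.87 and 4.94 CPM with Sal003. Its Sal003 libraries lay on both sides of the naive ones, and the log2 difference was -0.01 (95% interval -0.30 to 0.28, adjusted p = 0.954), with 38.9% of its windows overlapped by a gene on the opposite strand. *Nes*, which encodes the intermediate filament nestin, went from 60.7, 69.1, 69.4 and 62.8 CPM with cytokines to 7.06, 5.02, 4.08 and 2.83 CPM, against 5.51, 5.34, 4.4 and 4.42 CPM in naive. *Rnase6*, an antimicrobial ribonuclease, was at 13.3 to 17.8 CPM against 14.8 to 17.4 CPM in naive, and *Plcd1*, a phospholipase C, at 1.65 to 3.23 CPM against 2.09 to 2.68 CPM. *Slc4a11* and *Il18rap*, a chain of the IL-18 receptor, overlapped naive as well. The other fusion factor, *Ocstamp*, did not return fully, at 3.17, 2.26, 5.09 and 2.01 CPM against 0.375 to 0.696 CPM in naive and 102 to 124 CPM with cytokines. *Il1rl1*, the IL-33 receptor, and *Gfra2* fell by 5.37 and 5.87 on the log2 scale against IL-4/IL-13, and against naive neither passed the test nor had an interval within 1.5-fold, with *Il1rl1* at -0.46 (95% interval -0.97 to 0.06) and *Gfra2* at 0.05 (95% interval -1.30 to 1.40).

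Antigen presentation genes were split between both sides of naive. Of 10 MHC class II genes tested, 9 were above naive with cytokines and 3 with Sal003, 5 were below naive with Sal003, and the intervals of 6 lay within 1.5-fold of naive, beside 50.1% of all tested genes. The median was 0.93 with cytokines and -0.17 with Sal003. Their summed level was 8970, 11100, 9600 and 8500 CPM in naive and 13200, 13300, 13800 and 13600 CPM with Sal003, so by sum every Sal003 library was above every naive one. A sum is set by the members with the most reads, so it does not stand for the list, in which 5 of 10 were below naive. The higher sum does not come from *Cd74* or *H2-Ab1*, whose levels follow. *Cd74*, the invariant chain, read at 1820, 2560, 1696 and 1610 CPM in naive, 4612, 5083, 4785 and 4781 CPM with IL-4/IL-13 and 1843, 1878, 1886 and 1821 CPM with Sal003, a log2 difference from naive of -0.04 (95% interval -0.20 to 0.12). The naive library of mouse 2 was its highest, and without mouse 2 *Cd74* was above naive by 0.12 (adjusted p = 0.0309). *Ciita*, the class II transactivator, differed from naive by -0.05 (95% interval -0.19 to 0.09). *H2-Ab1*, a class II chain, was lower than naive, at 538 to 551 CPM against 568 to 849.9 CPM. *H2-DMb2*, a peptide exchange chain, fell by 1.35 on the log2 scale (adjusted p = 2.02e-07), with 13.1% of its windows found in other genes.

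Cell division genes made up part of the 151 induced genes that ended below naive. All 30 proliferation genes were lower with Sal003 than with IL-4/IL-13, and against naive 20 were below, 8 of them called down, and 1 was above at the adjusted p. Their median log2 fold change was -0.83 with Sal003 and 1.53 with cytokines alone. Of the 23 called induced by cytokines, 18 were below naive with Sal003 and 4 were at naive level. *Ccna2*, cyclin A2, read at 9.96, 10.5, 8.15 and 8.25 CPM in naive, 47.1, 40.6, 47.1 and 32.3 CPM with IL-4/IL-13 and 3.37, 2.59, 4.02 and 1.08 CPM with Sal003. No Sal003 library reached a naive one, and it fell by 1.76 ± 0.17 (SE, n = 4, adjusted p = 3.11e-09) on the log2 scale, with 21.6% of its windows overlapped on the opposite strand. *Tk1*, the salvage thymidine kinase, fell from 9.47, 12.2, 7.4 and 8.89 CPM in naive to 1.66, 1.97, 2.94 and 1.44 CPM. *Mki67*, the gene of the Ki-67 antigen, was at 9.76, 9.87, 13.6 and 9.83 CPM against 23.5, 18.5, 22.9 and 26.6 CPM in naive, with mouse 4 highest of the Sal003 libraries.

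Single genes of division and repair are given with their values. *Neil3*, a DNA glycosylase, fell by 2.29 and *E2f7*, a repressor of the cell cycle, by 1.63 on the log2 scale against naive. *Spc24* of the kinetochore fell by 1.47, and the motor protein *Kif4* by 0.67 with an adjusted p of 0.0112. Of the *Kif4* windows, 15.1% are overlapped on the opposite strand. The origin licensing subunit *Mcm2* was at naive level, at 16.7, 15.7, 15.9 and 15.3 CPM against 14.7, 18.02, 15.5 and 15.9 CPM. *Pcna*, the sliding clamp of DNA polymerase, stayed 2.38-fold above naive at 309.5 to 351 CPM, with 42.9% of its windows found in other genes. The ribonucleotide reductase subunit *Rrm2* fell to 2.52 to 4.19 CPM from 8.3 to 12.2 CPM, with 25.8% of its windows in other genes. *Ppm1j*, a phosphatase, and *Hrob*, a helicase partner in repair, were below naive by less, with log2 fold changes of -0.69 and -0.65. The 3 genes *Kif4*, *Hrob* and *Ppm1j* no longer passed the test without mouse 1 for *Kif4*, without mouse 1 or 2 for *Hrob* and without mouse 2 or 5 for *Ppm1j* (log2 -0.61, -0.44, -0.51, -0.35 and -0.66).

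**Figure D3:**
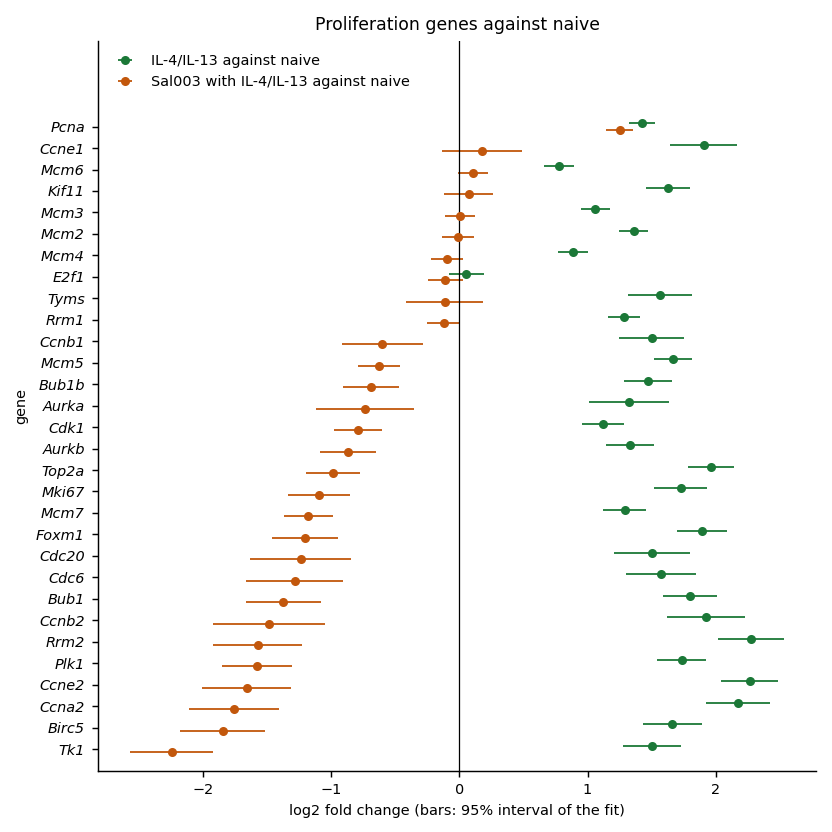
Log2 fold changes against naive of 30 proliferation genes with IL-4/IL-13 alone and with Sal003 and IL-4/IL-13, each with the 95% interval of the fit. The cytokine points lie to the right of 0 for 29 genes past the test, and the Sal003 points lie to the left of them for all 30, mostly at or left of 0.

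Most repressed genes stayed down, and the 6 that fell most encode surface receptors. *Cx3cr1*, the fractalkine receptor, read at 121, 93.8, 129.7 and 113 CPM in naive, 2.005, 1.56, 2.84 and 1.46 CPM with IL-4/IL-13 and 0.208, 0.0564, 0.283 and 0.206 CPM with Sal003. It was nearly absent in the Sal003 libraries and fell by 9.19 (n = 4, adjusted p = 1.7e-23) on the log2 scale, further than with cytokines alone. So few reads leave the size of this fall uncertain, and log2 ratios in single mice ran from -9.20 to -8.39. *Adgre4*, an adhesion receptor of the F4/80 family, fell from 129, 109.6, 144 and 124 CPM to 0.311, 0.564, 0.736 and 0.566 CPM. The paired receptors *Pilra*, *Pilrb1* and *Pilrb2* fell by 6.45, 6.81 and 6.996 on the log2 scale, and 14.1% to 20.9% of their windows are shared with other genes. The inhibitory lectin *Siglece* fell by 6.91, with 39.9% of its windows overlapped on the opposite strand. With Sal003 the paired receptors and *Siglece* read at only 0.103 to 0.395 CPM, so the sizes of their falls are uncertain. *Cd14*, the co-receptor for lipopolysaccharide, read at 511, 648, 569 and 528 CPM in naive and 34.6, 33.7, 42.9 and 34.1 CPM with Sal003, below the 54.8 to 65.6 CPM with cytokines.

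Of 30 inflammatory genes, 21 were below naive and 5 above it at the adjusted p, 13 were called down and 1 up, and the median was -0.96, beside -1.49 with cytokines alone. *Il1b* was at 0.113 to 0.338 CPM against 14.3 to 16.9 CPM in naive, and *Nfkbiz*, a coactivator of inflammatory genes, at 5.72 to 7.21 CPM against 117 to 133 CPM. The bacterial sensors *Tlr2* and *Nlrp3* fell by 2.60 and 2.63 on the log2 scale. The gene called up was *Il6*, which stayed under 1 CPM in every library. *Acod1*, the enzyme that makes itaconate, was repressed by the cytokines and rose above naive with Sal003, from 8.64, 8.24, 7.94 and 8 CPM to 19.1, 18.9, 13.9 and 30.9 CPM. Every Sal003 library of *Acod1* was above every naive one (2.47-fold, adjusted p = 4.11e-07). Among 29 macrophage identity genes 19 were below naive and 8 above it, with a median of -0.57, beside -0.38 with cytokines alone. *Maf*, a transcription factor of resting macrophages, stayed called below naive, at 183, 174, 176 and 191 CPM against 914, 739, 905 and 917 CPM, and was above the 91.1 to 100.5 CPM with cytokines. *Lyz2*, lysozyme, stayed at 6566, 6230, 7740 and 6070 CPM against 21170, 26540, 25050 and 21590 CPM in naive, and 10.7% of its windows occur in other genes.

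Interferon-stimulated genes made up 11 of the 64 repressed genes at naive level and 8 of the 37 above it. Of 34 tested, 30 were called down by IL-4/IL-13, and with Sal003 2 were called down and none up, while at the adjusted p 13 were above naive and 6 below. Their median log2 fold change against naive was 0.10 with Sal003 and -2.84 with cytokines alone, and 32 of the 34 were above the cytokine level at the adjusted p. Of the other 11 that the cytokines had called down, 4 were partly back, 2 were still called down and 5 were undetermined. *Rsad2*, the antiviral enzyme viperin, read at 170, 147, 154 and 142 CPM in naive, 7.24, 6.86, 9.48 and 9.95 CPM with IL-4/IL-13 and 138, 173, 68.96 and 249 CPM with Sal003. The cytokine libraries stood far below both others, and the Sal003 libraries lay on both sides of naive, with mouse 4 below and mouse 5 above all naive ones (log2 -0.07, 95% interval -0.53 to 0.38).

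The next largest returns to naive level were *Cmpk2*, a nucleotide kinase beside *Rsad2*, at 65.4 to 202 CPM against 131 to 154 CPM, *Rtp4* at 197 to 327 CPM against 225 to 279 CPM and *Oasl2* at 423 to 824 CPM against 484 to 588 CPM. Also at naive level, outside the list, were the GTPase *Tgtp2*, with 80.4% of its windows in other genes, and *Kdr*, a receptor for VEGF, with log2 differences of 0.01 and 0.22.

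Several members passed naive. *Irf7*, the transcription factor that amplifies interferon production, was at 571, 580.3, 469 and 457 CPM in naive and 719.8, 849.8, 416 and 1186 CPM with Sal003, 1.44-fold higher (adjusted p = 0.0163), with mouse 4 below every naive library. *Isg15*, the ubiquitin-like modifier, was at 61.5, 76.8, 49.02 and 50.6 CPM in naive and 89.7, 106, 46.5 and 155 CPM with Sal003 (1.59-fold, adjusted p = 0.00604), and 21.2% of its windows are overlapped on the opposite strand. *Ifi44* was at 99.04, 112, 48.3 and 162 CPM against 80.3, 57.3, 61.4 and 59.6 CPM, and again the library of mouse 4 was below naive. Outside the list, *Slfn1*, *Slfn4* and *Ifi206* were 1.64-fold, 1.77-fold and 1.89-fold above naive, the last with 12.1% of its windows in other genes. *Oas3*, which makes the 2-5A activator of RNase L, was higher than naive in all 4 mice, at 774, 901, 526 and 1085 CPM against 437, 375, 423 and 395 CPM (1.94-fold, adjusted p = 1.2e-06). *Bst2*, or tetherin, rose 1.94-fold against naive.

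A few members did not return. *Cxcl10*, the chemokine for CXCR3, read at 47.4, 43.95, 40.9 and 38.4 CPM in naive, 0.501, 0.857, 0.526 and 1.4 CPM with IL-4/IL-13 and 0.986, 1.41, 0.793 and 4.22 CPM with Sal003, and it fell by 4.53 on the log2 scale against naive (adjusted p = 3.13e-13). *Ifit3b* regained part of its level, at 6.12, 8.18, 3.06 and 19.4 CPM against 46.6 to 59.8 CPM, with 27.2% of its windows shared with other genes. The high-affinity Fc receptor *Fcgr1*, no member of the list, came back to 312, 375, 219.7 and 469.6 CPM from 34.4 to 39.7 CPM with cytokines, 0.675 of its naive level. The costimulatory ligand *Cd86* reached 23.3, 25.8, 16.2 and 33.9 CPM against 24.5, 25.98, 21.02 and 22.3 CPM in naive.

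The return differed between mice. The summed level of the 34 genes was 7430, 8530, 4970 and 10800 CPM with Sal003 and 7000, 6560, 6180 and 5980 CPM in naive, where mouse 5 was lowest. The median log2 ratio to naive of the same mouse was 0.03, 0.21, -0.37 and 0.68, and 19, 21, 6 and 30 genes were above naive. Without mouse 5, 6 genes were above and 10 below naive at the adjusted p with a median of -0.05, and without mouse 4 the numbers were 17 and 5 with a median of 0.28. The 34 genes summed to 1210 to 1410 CPM in the IL-4/IL-13 libraries, below every Sal003 library. Of the genes named as above naive, *Ifi44*, *Irf7*, *Isg15*, *Slfn1* and *Slfn4* did not pass without mouse 5, with log2 values of 0.32, 0.25, 0.34, 0.30 and 0.29. The 37 repressed genes above naive became 18 without mouse 5 and 61 without mouse 4. The reason for the difference between mice was not tested.

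**Figure D4:**
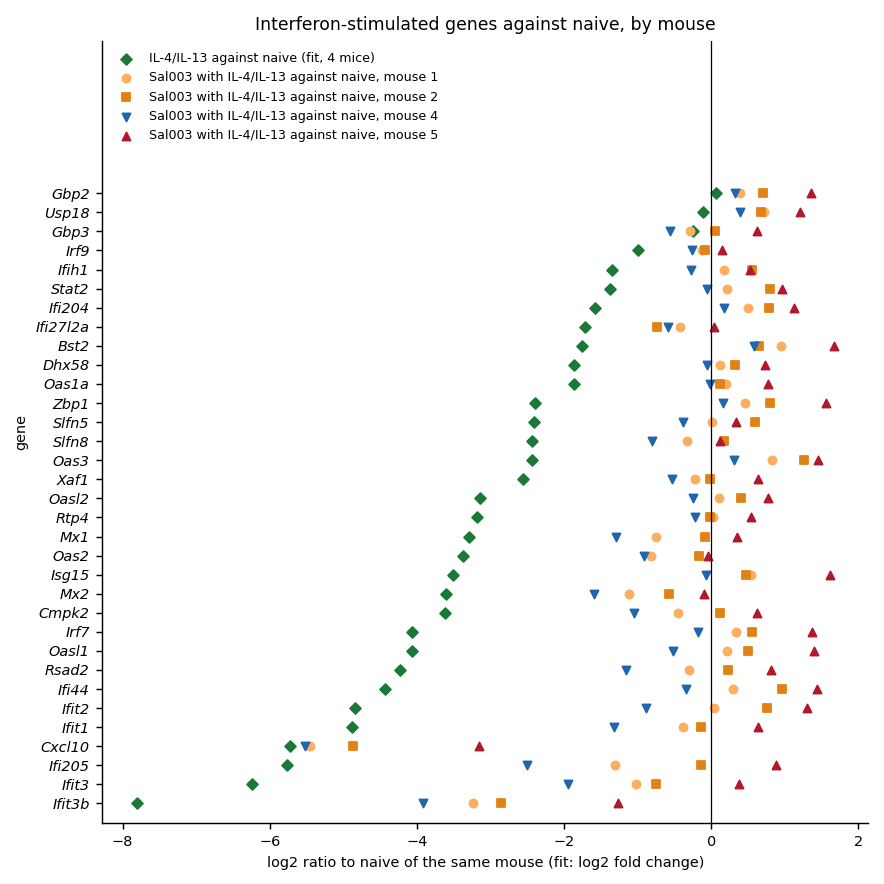
For 33 of the interferon-stimulated genes, diamonds give the fitted log2 fold change of IL-4/IL-13 against naive and the other symbols the log2 ratio of Sal003 with IL-4/IL-13 to naive in each of the 4 mice. The cytokine diamonds lie left of 0 for nearly all genes, the Sal003 symbols lie around 0, and most genes lie below 0 in mouse 4 and above 0 in mouse 5.

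Windows of 4 of these genes are printed because the interferon-stimulated response element core, GAAA repeated after any 2 bases, which factors of the IRF family bind, was common among the genes that returned. Matches on either strand are in capitals, and the windows lie on the minus strand of GRCm39 at chr12:26506402-26506701 for *Rsad2*, chr4:156285254-156285553 for *Isg15*, chr5:120915680-120915979 for *Oas3* and chr5:92496699-92496998 for *Cxcl10*.
Rsad2: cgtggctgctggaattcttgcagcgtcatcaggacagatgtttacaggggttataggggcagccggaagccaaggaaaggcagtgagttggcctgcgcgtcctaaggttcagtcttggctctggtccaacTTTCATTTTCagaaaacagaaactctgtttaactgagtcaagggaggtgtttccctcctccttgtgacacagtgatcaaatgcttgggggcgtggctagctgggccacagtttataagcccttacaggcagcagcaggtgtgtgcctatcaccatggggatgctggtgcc
Isg15: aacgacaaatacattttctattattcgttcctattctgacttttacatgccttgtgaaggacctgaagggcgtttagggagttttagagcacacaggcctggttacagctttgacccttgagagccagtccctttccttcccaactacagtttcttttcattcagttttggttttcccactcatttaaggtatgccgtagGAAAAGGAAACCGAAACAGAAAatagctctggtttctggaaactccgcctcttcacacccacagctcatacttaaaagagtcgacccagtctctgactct
Oas3: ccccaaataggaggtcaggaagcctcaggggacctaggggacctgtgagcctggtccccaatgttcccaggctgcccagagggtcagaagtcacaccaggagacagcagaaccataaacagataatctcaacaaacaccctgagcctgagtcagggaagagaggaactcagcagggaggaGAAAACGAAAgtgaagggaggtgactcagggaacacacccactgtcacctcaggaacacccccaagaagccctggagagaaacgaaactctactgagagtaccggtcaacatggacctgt
Cxcl10: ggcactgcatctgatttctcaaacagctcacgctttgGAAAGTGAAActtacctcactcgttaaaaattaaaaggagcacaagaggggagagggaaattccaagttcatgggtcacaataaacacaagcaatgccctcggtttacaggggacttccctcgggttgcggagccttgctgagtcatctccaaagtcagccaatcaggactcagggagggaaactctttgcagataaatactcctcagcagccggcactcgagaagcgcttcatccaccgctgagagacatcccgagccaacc
*Isg15* held 3 overlapping matches within 50 bases of its start, and *Cxcl10*, which did not return, held 1 further upstream. A match was found in 61.8% of the 34 interferon-stimulated genes, beside 3.79% of all windows. Among repressed genes it was found in 32.8% of 58 at naive level and in 46.9% of 32 above naive. It was also found in 28.1% of 32 undetermined, in 10.1% of 169 partly below naive and in 6.25% of 400 that stayed repressed.

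A gene was called new where it was called against naive with Sal003 and differed from IL-4/IL-13 in the same direction at the adjusted p, while the cytokines alone moved it that way by less than 1.5-fold. By this rule 82 genes were new above naive and 232 new below. Of those above, 77 were in no cytokine class and 5 had been repressed, and 79 were above naive in 4 of 4 mice. Of those below, 168 were in no class and 64 had been induced, and 224 were below naive in 4 of 4 mice.

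ISR targets were among the new genes above naive. Of 40 ISR targets tested, 26 were above and 6 below naive at the adjusted p, 9 were called up and 1 down, and their median log2 fold change was 0.85 beside 0.26 with cytokines alone, or 0.83 and 0.23 with the 1 gene near 0 in naive at its bound. *Trib3*, a pseudokinase induced by ATF4 and CHOP, read at 2.15, 1.99, 2.79 and 2.63 CPM in naive, 3.34, 4.29, 3.42 and 3.16 CPM with IL-4/IL-13 and 38.1, 31.4, 27.2 and 38.5 CPM with Sal003. Its Sal003 libraries were all far above both other groups, 14.1-fold over naive (log2 3.82 ± 0.11, SE, n = 4, adjusted p = 8.17e-19). *Asns*, asparagine synthetase, read at 6.002, 7.33, 5.09 and 4.72 CPM in naive, 7.46, 7.26, 8.53 and 9.35 CPM with IL-4/IL-13 and 41.1, 36.4, 29.8 and 42.7 CPM with Sal003, 6.51-fold above naive without overlap. *Chac1*, which degrades glutathione, rose to 2.49, 2.26, 1.36 and 2.57 CPM from 0.488, 0.341, 0.322 and 0.348 CPM, and *Aars1*, the alanyl-tRNA synthetase, to 164, 159.9, 132 and 182 CPM from 58.2, 64.5, 59.1 and 58.6 CPM. Of the *Aars1* windows, 21.6% occur in another gene, *Exosc6*.

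Transcription factors of the list differed. *Atf4* itself was 1.77-fold and *Atf5* 6.23-fold above naive, whereas *Cebpb* and *Cebpg* did not pass the test at 0.885-fold and 1.05-fold of naive. *Cebpb* was near the limit (adjusted p = 0.0642 in edgeR). It passed as below naive in some alternatives, among them upper-quartile scaling and leaving out mouse 5. Of the *Cebpb* windows, 15.2% are overlapped on the opposite strand. *Jdp2* was below naive at 0.824-fold (adjusted p = 0.00204). *Ddit3*, which encodes CHOP, was 2.28-fold above naive, but 73.4% of its windows lie in or opposite other genes, most of them opposite *Mars1*. Members of the same program did not all rise over the cytokine level. *Shmt2*, the mitochondrial serine hydroxymethyltransferase, was 1.34-fold above naive and differed from IL-4/IL-13 by -0.03 on the log2 scale (adjusted p = 0.628), and *Psat1*, of serine synthesis, was lower with Sal003 than with IL-4/IL-13, at 11.2 to 17.2 CPM against 37.1 to 40.4 CPM. *Ppp1r15a*, the GADD34 subunit that directs eIF2α dephosphorylation, fell by 0.36 on the log2 scale against naive (adjusted p = 0.000323). Of 20 ER chaperone genes 17 were above naive with and without Sal003, with medians of 0.53 and 0.52. *Hspa5*, the chaperone BiP, was 1.46-fold above naive, with 35.4% of its windows overlapped on the opposite strand, whereas *Herpud1*, of ER-associated degradation, fell to 31.1 to 38.6 CPM from 62.8 to 75.2 CPM.

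The windows of *Chac1* at chr2:119181439-119181738 and *Aars1* at chr8:111760258-111760557, both on the plus strand, are printed because they hold the letters TGATGNAA of a C/EBP-ATF element, the type that ATF4 binds with a C/EBP partner.
Chac1: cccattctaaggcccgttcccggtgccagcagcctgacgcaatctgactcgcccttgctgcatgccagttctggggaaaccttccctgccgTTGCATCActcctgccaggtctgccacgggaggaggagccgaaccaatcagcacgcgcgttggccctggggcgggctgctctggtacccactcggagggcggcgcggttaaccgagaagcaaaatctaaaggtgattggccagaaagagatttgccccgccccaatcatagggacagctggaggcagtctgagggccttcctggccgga
Aars1: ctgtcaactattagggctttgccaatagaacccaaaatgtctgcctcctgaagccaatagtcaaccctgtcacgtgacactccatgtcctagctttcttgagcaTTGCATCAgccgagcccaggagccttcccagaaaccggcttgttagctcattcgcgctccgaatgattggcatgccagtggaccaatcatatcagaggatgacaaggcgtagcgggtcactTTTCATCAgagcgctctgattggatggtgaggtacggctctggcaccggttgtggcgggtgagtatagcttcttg
A match on either strand was found in 25% of 40 ISR targets and in 11.5% of 61 protein-coding genes new above naive, beside 2.52% of all windows and 0.493% of the 203 new below. The windows of *Trib3* and *Asns* held none.

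Other new genes above naive had other roles. *Gbp11* and *Gbp8*, guanylate-binding proteins of the interferon-γ response, were 120-fold and 8.36-fold above naive, with 5.86% and 6% of their windows in other genes. *Gbp11* was nearly absent in the other groups and read at 14.4, 18.2, 8.83 and 25.1 CPM with Sal003, again lowest in mouse 4 and highest in mouse 5. *Cox6a2*, the muscle-type subunit of cytochrome c oxidase, rose from 0.342, 1.02, 0.804 and 1.04 CPM to 19.98, 16.1, 15.8 and 18.3 CPM, and *Pgm5*, a relative of phosphoglucomutase, from 0.488, 0.739, 0.697 and 0.596 CPM to 6.33, 7.84, 5.61 and 8.08 CPM. *Fabp5*, a fatty acid carrier, rose from 216, 269, 234 and 226 CPM in naive to 700.1, 681, 633 and 726 CPM (2.9-fold), with 8.95% of its windows in other genes.

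Lysosomal genes also rose over both groups. Of 22, 18 were above and 1 below naive with Sal003, 4 were called up, and 18 were above IL-4/IL-13. Their median log2 fold change was 0.70 against naive and 0.06 with cytokines alone. *Gpnmb*, a glycoprotein of lysosomes and phagosomes, read at 5692, 5657, 7328 and 5952 CPM in naive, 3366, 3520, 4443 and 3502 CPM with IL-4/IL-13 and 13150, 12680, 14090 and 12840 CPM with Sal003 (2.15-fold over naive, adjusted p = 1.68e-14). The 3 groups did not overlap, and the cytokine group was the lowest. The proteases *Ctsd* and *Ctsl* were 1.58-fold and 1.91-fold above naive, although 35% and 26.6% of their windows lie in or opposite other genes. *Spp1*, osteopontin, rose to 1040, 905, 989 and 925 CPM from 459.5, 496, 466 and 393 CPM, whereas the lipid carrier *Apoe* stayed repressed, at 1627 to 1771 CPM against 5772 to 9726 CPM.

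The new genes below naive included a chemokine receptor, a chemokine and a scavenger receptor. *Ccr2*, the receptor for CCL2, read at 151, 129.6, 153 and 135 CPM in naive, 89.2, 106, 107 and 95.8 CPM with IL-4/IL-13 and 14.1, 18.6, 16.98 and 18.1 CPM with Sal003. Each Sal003 library was below every other library, and *Ccr2* fell by 3.08 ± 0.094 (SE, n = 4, adjusted p = 1.26e-18) on the log2 scale. *Cxcl14*, a chemokine, fell from 10.1, 11.9, 9.28 and 9.34 CPM to 1.04, 1.64, 1.13 and 0.824 CPM and *Mturn* from 32.9, 28.9, 33.2 and 30.9 CPM to 3.997, 5.19, 5.61 and 4.01 CPM. *Cd163*, the haemoglobin scavenger receptor, was induced by the cytokines to 9.47, 10.4, 7.48 and 9.16 CPM and went to 0.415, 0.846, 0.679 and 0.463 CPM with Sal003, below the 3.81, 3.01, 2.95 and 3.98 CPM in naive. *Abca6*, a lipid transporter, fell by 2.52 on the log2 scale. *Ltf*, lactoferrin, fell by 3.04; it is a neutrophil granule gene, the summed neutrophil markers fell beside it as given above, and their part in this result was not tested.

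Signalling genes were among the new genes below naive as well. *Osgin1*, an oxidative stress response gene, fell to 5.19, 5.47, 6.06 and 4.94 CPM from 28.6, 29.9, 27.7 and 24.8 CPM. *Pdgfb*, a growth factor for stromal cells, fell to 45.6, 44.4, 50.7 and 37.6 CPM from 121, 131, 124 and 129.8 CPM, and *Btg2*, an antiproliferative p53 target, to 48.3, 53.01, 51.2 and 45.8 CPM from 130.5, 134, 126 and 130.5 CPM. For these 3 genes the naive and IL-4/IL-13 libraries overlapped and the Sal003 libraries lay below both.

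**Figure D5:**
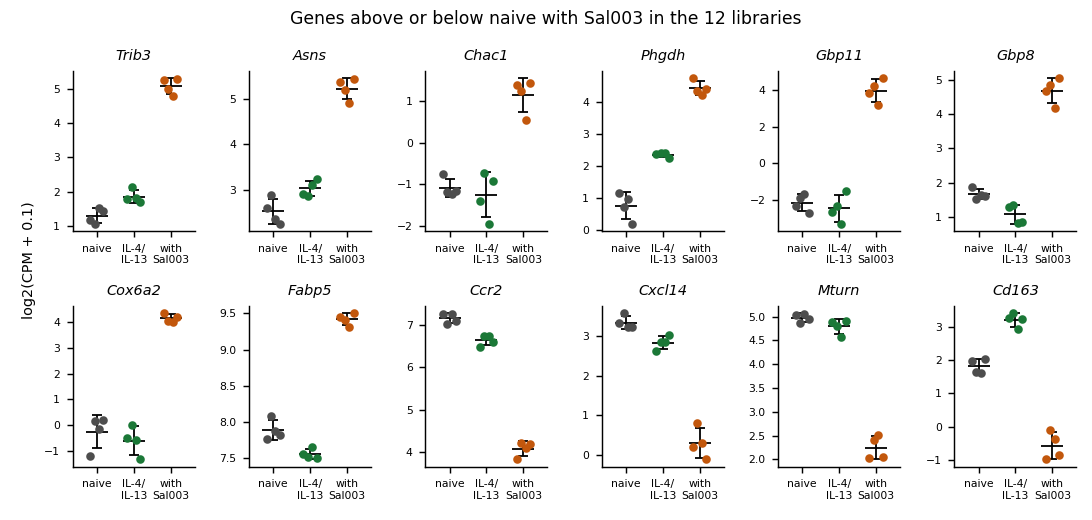
Levels of 12 genes that stood above or below naive with Sal003, as log2(CPM + 0.1), in naive, IL-4/IL-13 and Sal003 with IL-4/IL-13 libraries; points are the 4 mice, and the horizontal mark and bar are the mean and SD. *Trib3*, *Asns*, *Chac1*, *Phgdh*, *Gbp11*, *Gbp8*, *Cox6a2* and *Fabp5* are higher with Sal003 than in both other groups, and *Ccr2*, *Cxcl14*, *Mturn* and *Cd163* are lower.

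Other lists were described in the same way. Of 21 sterol synthesis genes 16 were above and 1 below naive, with a median of 0.62 beside 0.61 with IL-4/IL-13. Of 27 glycolysis and hypoxia genes 12 were above and 12 below, and of 21 NRF2 targets 7 were above and 8 below, with medians of 0.10 and 0.07. Of 13 heat shock genes 11 were above naive and 0 below, with a median of 0.50. The lists are described by these counts only. The 32.9% and 32.6% of all tested genes past the adjusted p in each direction are the background for these and for every other list here.

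Just inside and just outside the 2.5-fold bound, *Acot6* at a log2 fold change of 1.32 was called above naive while *Klhl33* at 1.32 was not, and *Celf5* at -1.32 was called below while *Bcr* at -1.32 was not, so the counts by class depend on genes that differ by less than the rounding of these values.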

How the data were processed

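RNA of BMDM from 4 mice in 6 conditions was sequenced from mRNA libraries. The deposited values are raw counts per gene made by the authors. The submitters' processing notes name cutadapt 1.8, STAR 2.7, HTSeq 0.9.1, RSEM 1.2.31 and GRCm39. The strand setting is not stated in the sources used here, so overlap on either strand is given. The M-CSF dose differs between labels and paper and is not given. The deposited TPM table was not used, since its header has 28 names over 25 cells. The 5 totals that name no gene took 12.74% to 15.23% of the counts and were left out.

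Counts of all 24 libraries were fitted with edgeR 4.0.16 (R 4.3.3) using TMM scaling, its expression filter (13679 of 56884 genes) and mouse as a block, because libraries of 1 number come from 1 mouse. Residuals of the same mouse correlated at a median of 0.25 (0.01 to 0.49, 12 pairs) and of different mice at -0.05. The median biological coefficient of variation was 5.81%. GENCODE vM39 named 56323 genes. Shared sequence is the percent of 100-base windows found in other genes or opposite them. It is not printed for every named gene that has some. Named genes were list members, the 6 largest changes of each class with at least 50 mean counts and the same direction in 4 of 4 mice, both taken on the cytokine change for classes at or past naive and on the Sal003 change otherwise, and the 6 induced genes most changed against IL-4/IL-13 in each direction. The genes nearest the fold bound are named too, and 1 list member is not reported here by name. The genes, lists and motifs were chosen with earlier results of these data known. Within the naive, IL-4/IL-13 and Sal003 groups no library was found deposited more than once: the smallest chi-square per gene over the 18 pairs of replicates was 2.85. Pairs across groups and the libraries of the other groups were not compared in this way. The code was tested on simulated data. Alternatives used DESeq2 1.42.0, other scaling, filters, thresholds, subsets of mice and no block.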

Additional observations from a re-analysis of the deposited data

Results flagged for a closer look

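Of 368 groups of 4 libraries examined over the named genes, 18 held a library whose gap to the nearest other, as a share of the group's range, passed Dixon's 95% limit, and chance alone gives about 1 group in 20. Of the Sal003 libraries, mouse 4 was high for *Cd14* at 42.92 CPM, with the others at 33.72 to 34.57 CPM, and for *Mki67* at 13.64 CPM, with the others at 9.759 to 9.868 CPM. Mouse 5 was low for *Il1rl1* at 0.8236 CPM, where the others were at 2.199 to 2.378 CPM.

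Among naive libraries, mouse 2 was low for *Maf* at 739.2 CPM, for *Nlrp3* at 97.91 CPM and for *Abca6* at 4.207 CPM. The same library was high for *Aars1*, at 64.47 CPM against 58.2 to 59.1 CPM in the others, and for *Marco*, a scavenger receptor, at 35.48 CPM against 8.198 to 11.23 CPM in the others. In mouse 5, *Bhlhe40*, a transcription factor, was high in naive at 23.85 CPM.

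Among IL-4/IL-13 libraries, mouse 5 was high for *Ifit2* at 15.54 CPM, *Kcnd3* at 11.29 CPM and *Oasl2* at 74.96 CPM, and low for *Arg1* at 405.4 CPM. Mouse 4 was high for *Cst7* at 3.58 CPM and *Gpnmb* at 4443 CPM and low for *Btg2* at 112.5 CPM. Mouse 2 was high for *Abca6* at 5.547 CPM, and mouse 1 was low for *H2-Ab1* at 1232 CPM. None of these libraries was left out for this reason.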

How the results depend on the processing

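With at least 10 counts required in every library compared, which leaves 11461 genes, 225 genes were called up and 494 down, 140 induced genes stayed above naive, 92 were below, 246 repressed genes stayed below, and 28 and 88 were new above and below. With a 2-fold threshold the numbers were 715 up, 1567 down, 416 induced still above, 123 induced at naive level, 814 repressed still below, 120 repressed at naive level, 56 repressed above, 179 new above and 396 new below. A stricter bound for naive level left 17 induced and 14 repressed genes there. When genes were chosen in mice 1 and 2 and read in mice 4 and 5, 39 repressed genes were at naive level, and with the mice exchanged 36 induced genes were.

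Leaving out 1 mouse gave 18 (without mouse 5) to 61 (without mouse 4) repressed genes above naive, 432 to 451 genes called up and 1003 to 1106 called down. It also raised the genes in no class from 99 to between 141 (without mouse 4) and 161 (without mouse 1) among the induced and from 52 to between 65 (without mouse 4) and 98 (without mouse 1) among the repressed, with 154 and 78 without mouse 2 and 150 and 79 without mouse 5. Without the filter on low counts these were 226 and 142, and with at least 10 counts 22 and 12. Of the interferon list, 6 were above and 10 below naive without mouse 5, a setting added after seeing the data. *Cd74*, at -0.04 with all mice, ranged from -0.0978 without mouse 4 to 0.1156 without mouse 2, where it turned. Without the pairing by mouse (no replicate block), 439 genes were called up and 1025 down, 259 induced genes remained above naive, 53 were at naive level and 143 below, 487 repressed genes remained below, 50 were at naive level and 34 above, and 83 and 208 were new above and below. The genes in no class became 119 of the induced and 80 of the repressed, and the latter was the 1 count of these classes that moved by over 1.5 times. DESeq2 called 441 up, and upper-quartile scaling 411. The cause of these differences was not tested.

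Of single named genes, 17 values no longer passed the adjusted p and 11 newly passed it under some alternative. *Slfn1* and *Slfn4* did not pass with DESeq2. *Oasl2* and *Ifit2* passed without mouse 4, and *Cebpb* passed as below naive in 4 alternatives. No value past the test with all mice changed direction.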

Other observations

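Genes of the extracellular matrix and of growth factors lay on both sides of naive. Of 22 tested, 9 were above and 10 below naive with Sal003 at the adjusted p of edgeR. Of all tested genes 32.9% were above and 32.6% below. The median log2 fold change of the 22 was -0.06. *Mmp12*, the macrophage elastase, read at 64.3, 70.05, 84.95 and 73.8 CPM in naive, 1155, 1379, 1449 and 1213 CPM with IL-4/IL-13 and 259.9, 230.3, 322 and 185 CPM with Sal003. *Fn1*, fibronectin, kept 65.2, 49.9, 74.05 and 23.01 CPM of 581, 519.8, 607 and 451 CPM, above the 37.7, 20.1, 30.1 and 8 CPM in naive by 2.24-fold, and mouse 5 was lowest in all 3 groups. Summed fibroblast markers were at 19.7 to 141 CPM in naive and 8.24 to 49.3 CPM with Sal003, and their part in these values was not tested. *Thbs1*, thrombospondin, and *Vegfa*, the vascular growth factor, stayed below naive, at 21.3 to 43.7 CPM against 237 to 376 CPM and 50.5 to 54.4 CPM against 129 to 183 CPM.

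The transcripts tested of the mitochondrial genome did not move together. Only 7 of its 13 protein-coding genes were tested, so these values do not cover the whole mitochondrial genome. Of the 7 tested, 2 were above and 4 below naive with Sal003, where 6 were above with cytokines alone. *mt-Nd1* and *mt-Nd2*, subunits of complex I, were 1.7-fold and 1.61-fold above naive. *mt-Co1*, of complex IV, and *mt-Cytb*, of complex III, fell by 1.06 and 0.90 on the log2 scale, and 30.8% of the *mt-Co1* windows occur in other genes or opposite them. In the Sal003 group mouse 4 was highest for all 7 genes and mouse 5 lowest for 6, while in naive mouse 5 was highest for all 7. The median log2 ratio to naive was -0.39, -0.38, -0.10 and -1.44 in mice 1, 2, 4 and 5, and the fitted median of -0.58 became -0.27 without mouse 5, where *mt-Co1* and *mt-Cytb* were at -0.85 and -0.69 and still passed the test. Of 25 lipid handling genes 14 were above and 4 below naive with a median of 0.35, and the cholesterol exporter *Abca1* fell to 78.4 to 96.4 CPM from 237 to 411 CPM. Of 17 p53 targets 8 were above and 6 below. The background for the mitochondrial, lipid handling and p53 counts is the same 32.9% and 32.6% of all tested genes.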
